A study of Mus musculus with 8 samples.

Results

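Annexins are calcium-dependent membrane proteins, and their transcripts were followed here in whole mouse testes after conditional deletion of the transcription factor gene Dmrt1. The family was taken as every probe set carrying 1 of 9 annexin symbols: Anxa1, Anxa2, Anxa3, Anxa4, Anxa5, Anxa6, Anxa7, Anxa11 and Anxa13. Of these 9 genes, 8 had a probe set of their own, and all 8 were among the 13802 genes tested of 18194 on the array. The symbols were picked from earlier results on the same log2 intensities, and Anxa13 was selected on its difference between the Cre lines. The values of all members, against the controls and between the lines, are therefore given as a description with no test. Standard errors of differences come from the limma fit. They pool the spread between arrays over the 3 groups and are moderated by that of all features in the fit. Tests are given only for genes that are not members.

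The testes came from males aged 28 postnatal days on a mixed C57BL6/6J and 129 background, and each of the 8 samples had its own array of 45101 probe sets. Every animal, controls included, carried 2 floxed copies of Dmrt1. The Sf1-Cre group (n = 4) carried Cre driven by the promoter of Nr5a1, also called Sf1, the Dhh-Cre group (n = 2) carried Cre driven by the Dhh promoter, and the Control group (n = 2) carried no Cre. The submitters present both promoters as specific to Sertoli cells, the somatic cells that nurse germ cells in the tubule. The labels call the samples of a group biological replicates. The Dmrt1 signal itself was log2 7.10 to 7.89 in Sf1-Cre, 10.43 and 9.94 in Dhh-Cre and 8.50 and 8.76 in Control. Since it exceeded the controls in Dhh-Cre, the signal does not show the deletion in that line. It cannot settle whether the label holds, as the position of its probe set relative to the deleted exons is not known. Each Dhh-Cre value below carries this reservation.

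Each annexin has a conserved core of repeats that binds acidic phospholipids, such as phosphatidylserine, when calcium rises, and a variable amino-terminal end that binds partner proteins. Through this core annexins link membranes to one another and to the actin cytoskeleton, and they take part in exocytosis, endosome traffic and the resealing of torn membranes. They are made in many somatic cell types, among them macrophages, fibroblasts, endothelial cells and epithelia. In the testis Sertoli, Leydig, peritubular and interstitial cells lie beside a far larger number of germ cells, so the RNA of a whole testis reflects all of them. In such bulk samples fewer cells of a type and less RNA per cell cannot be told apart.

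Promoter windows are printed for 3 members that were higher in both lines. They are Anxa1 and Anxa2, whose binding partners are described below, and Anxa5, which had the largest difference. The windows come from RefSeq on GRCm38.p6 and run from 250 bases before to 50 bases after the annotated transcript start, 5′ to 3′ on the gene's strand. They lie at chr19:20390622-20390921 (minus strand) for Anxa1, chr9:69453433-69453732 (plus strand) for Anxa2 and chr3:36475838-36476137 (minus strand) for Anxa5. Capitals mark matches to the TATA box, GC box and AP-1 letters spelled out after them.
Anxa1: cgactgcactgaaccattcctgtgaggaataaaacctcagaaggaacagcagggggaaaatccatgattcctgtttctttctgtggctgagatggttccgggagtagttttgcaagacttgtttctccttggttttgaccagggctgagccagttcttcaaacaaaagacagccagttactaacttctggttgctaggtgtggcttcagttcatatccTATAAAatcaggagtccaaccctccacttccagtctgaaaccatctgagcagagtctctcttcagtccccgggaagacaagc
Anxa2: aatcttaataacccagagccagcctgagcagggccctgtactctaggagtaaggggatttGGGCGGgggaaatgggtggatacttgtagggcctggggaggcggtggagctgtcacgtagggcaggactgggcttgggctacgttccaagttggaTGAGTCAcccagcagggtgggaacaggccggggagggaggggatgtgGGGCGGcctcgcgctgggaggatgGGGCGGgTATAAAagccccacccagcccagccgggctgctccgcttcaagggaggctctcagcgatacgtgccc
Anxa5: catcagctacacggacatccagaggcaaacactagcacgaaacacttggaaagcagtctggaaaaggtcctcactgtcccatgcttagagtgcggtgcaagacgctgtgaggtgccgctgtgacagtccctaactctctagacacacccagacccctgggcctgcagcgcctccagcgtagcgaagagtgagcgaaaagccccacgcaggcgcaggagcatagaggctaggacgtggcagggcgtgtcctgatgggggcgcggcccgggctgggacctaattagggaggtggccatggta

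A set of 5 short motifs was sought on both strands of these windows: ACANTGT, the core of DM-domain factors such as Dmrt1; AAGGTCA, the core of Nr5a1; the TATA box TATAAA; the GC box GGGCGG; and the AP-1 site TGANTCA. The Anxa1 window held TATAAA 32 bases before the start. The Anxa2 window held TATAAA 17 bases before the start, 3 copies of GGGCGG at 190, 48 and 24 bases before it and TGANTCA at 95 bases before it, with no overlap between these matches. In the Anxa5 window none of these letters occurred. Of 12 mouse annexin genes, 9 had at least 1 window, making 12 windows in all. TATAAA occurred in 3 of the 12, against 13.6% of all 32851 windows in the RefSeq table, and GGGCGG in 5 of the 12, against 35.7%. TGANTCA occurred in 2 of the 12, against 7.81% of all windows. Neither ACANTGT nor AAGGTCA occurred in the 12 annexin windows, where 7.54% and 4.72% of all windows held them. These matches describe letters in a window, not binding sites.

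The 7 measured members other than Anxa13 were higher than Control in both Cre lines. In the fit over all 13802 genes, 7 of 7 lay past the call threshold as higher in Sf1-Cre and 7 of 7 in Dhh-Cre (limma, Benjamini-Hochberg adjusted p under 0.05). Of all genes tested, 46.6% were called higher in Sf1-Cre and 49.1% in Dhh-Cre (79.8% and 79.6% in either direction). Since the members were selected on these same intensities, nothing is read from their count. Fold changes of the 7 ran from 3.50-fold for Anxa2 to 24.9-fold for Anxa5 in Sf1-Cre, and from 3.55-fold to 23-fold for the same genes in Dhh-Cre. The median log2 difference of the 7 was 3.14 in Sf1-Cre and 3.03 in Dhh-Cre, beside 0.34 and 0.54 over all genes tested. Every mutant array lay above every Control array for each of the 7, which held for 50.0% of all genes in Sf1-Cre and 56.0% in Dhh-Cre. Both lines were set against the same 2 controls, so their differences are not independent of each other.

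**Figure D1:**
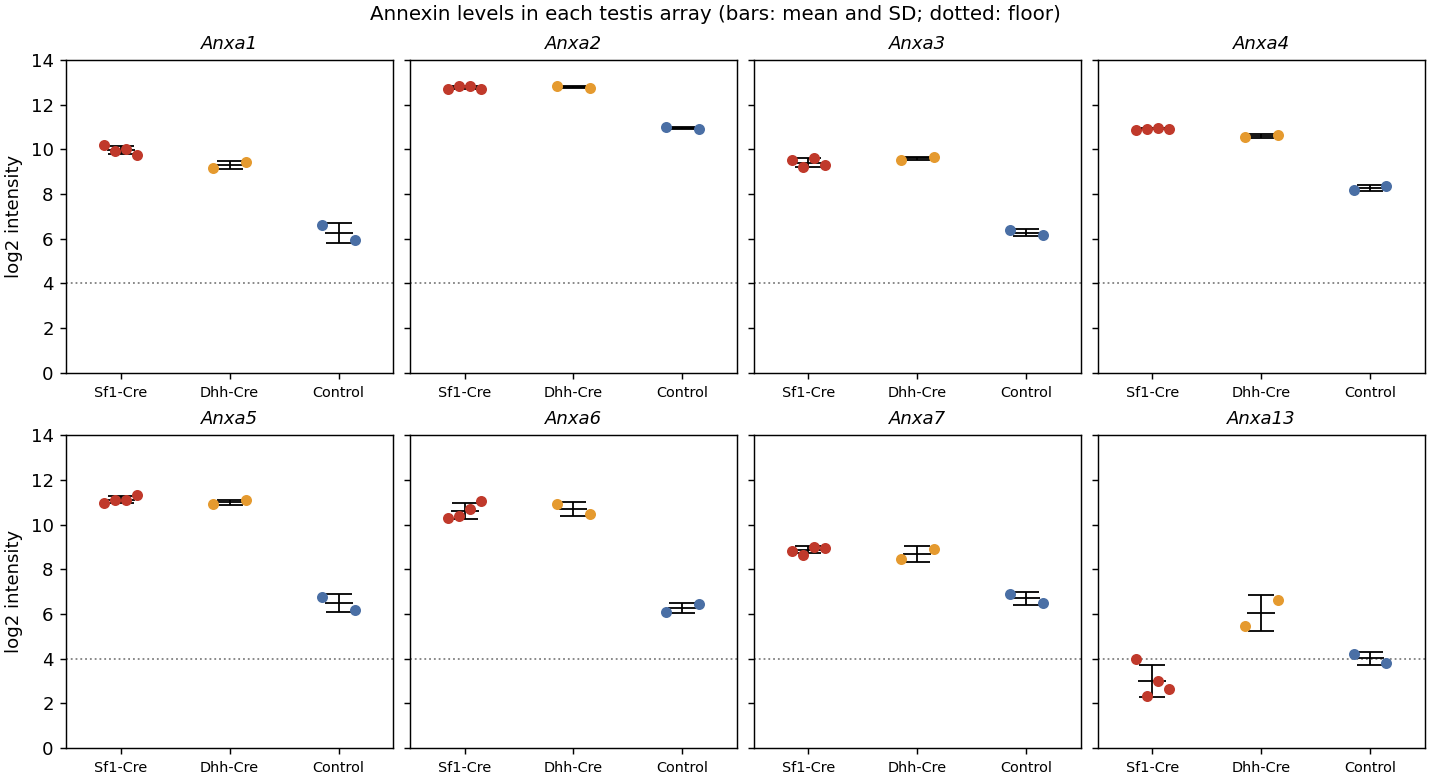
Log2 intensity of the 8 annexins with a probe set of their own, 1 panel per gene, with 1 point per array for Sf1-Cre (4), Dhh-Cre (2) and Control (2), bars at the mean and SD of each group and a dotted line at log2 4. For Anxa1 to Anxa7 all mutant points lie above the Control points, whereas the mean of Anxa13 is highest in Dhh-Cre (6.04) and lowest in Sf1-Cre (2.98).

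The 7 differences stayed positive in both lines under all 22 processing alternatives tried, but their size depended on how arrays were scaled. When each array was centred on the median level of 13 housekeeping genes, every gene moved down by a step of 1.70 in Sf1-Cre and 1.69 in Dhh-Cre on the log2 scale. That step was larger than the housekeeping genes' own median difference, which was 0.78 in Sf1-Cre and 0.76 in Dhh-Cre. The median of all genes then stood at -1.36 in Sf1-Cre and -1.16 in Dhh-Cre. Differences of the 7 members were 0.11 to 2.94 in Sf1-Cre and 0.13 to 2.83 in Dhh-Cre under that centring, with 6 and 5 of them past the call threshold.

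Anxa5, whose product coats membranes that expose phosphatidylserine and is used in the laboratory to detect dying cells, showed the largest difference among the members. Its log2 intensity was 10.97, 11.10, 11.08 and 11.33 in Sf1-Cre arrays, 10.92 and 11.08 in Dhh-Cre arrays and 6.77 and 6.19 in Control arrays. The mutant arrays stood in a narrow band far above the controls, and the 2 lines overlapped. The difference against Control was 4.64 ± 0.19 (SE) on the log2 scale in Sf1-Cre, 24.9-fold, and 4.52 ± 0.22 in Dhh-Cre, 23-fold. Of all genes tested, 1.21% had a larger positive difference in Sf1-Cre and 0.609% in Dhh-Cre.

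Anxa6 encodes the member with a duplicated annexin core, known for binding cholesterol-rich membranes and for bringing the Ras-inactivating protein Rasa1 and protein kinase C alpha to them. It stood at log2 10.28, 10.38, 10.72 and 11.05 in Sf1-Cre arrays, 10.93 and 10.47 in Dhh-Cre arrays and 6.10 and 6.43 in Control arrays. The spread within each line was wider than for Anxa5, and the lines overlapped, but the gap to the controls was of like size. Differences against Control were 4.34 ± 0.25 (SE) in Sf1-Cre, 20.2-fold, and 4.43 ± 0.29 in Dhh-Cre, 21.6-fold. Over the 8 arrays Anxa6 was also the member whose profile, centred on its own mean, lay nearest to that of Anxa5, at a root mean square distance of 0.33 log2 units.

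Anxa1 encodes a glucocorticoid-induced protein that dampens inflammation, in part through formyl peptide receptors, and restrains cytosolic phospholipase A2. Its log2 intensity was 10.19, 9.91, 10.002 and 9.76 in Sf1-Cre arrays, 9.17 and 9.44 in Dhh-Cre arrays and 6.60 and 5.96 in Control arrays. The 3 groups did not overlap, with Sf1-Cre above Dhh-Cre and both above Control. Against Control it was higher by 3.69 ± 0.21 (SE) in Sf1-Cre, 12.9-fold, and by 3.03 ± 0.25 in Dhh-Cre, 8.15-fold. Between the lines the difference, Sf1-Cre minus Dhh-Cre, was 0.66 ± 0.21 (SE). A second probe set of Anxa1, 1444016_at, lay under log2 4 in all 8 arrays, and with the mean of both the differences were 1.58 in Sf1-Cre, 1.29 in Dhh-Cre and 0.29 between the lines.

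Anxa3, a member abundant in neutrophils, where it binds granule membranes, stood at log2 9.53, 9.20, 9.60 and 9.32 in Sf1-Cre arrays, 9.55 and 9.65 in Dhh-Cre arrays and 6.39 and 6.16 in Control arrays. The lines overlapped and both lay well above the controls. It was higher by 3.14 ± 0.16 (SE) in Sf1-Cre, 8.81-fold, and by 3.33 ± 0.19 in Dhh-Cre, 10-fold. Neutrophil transcripts were prominent in Sf1-Cre replicate 1. Camp, on the same list, stood at log2 6.81 in that array, 6.67 in Dhh-Cre replicate 1 and 2.72 to 3.47 in the others. In Dhh-Cre replicate 1 Camp was high alone, as S100a8, S100a9 and Ngp stood at log2 3.83, 4.45 and 2.24 there. In Sf1-Cre replicate 1 the neutrophil genes S100a8, S100a9 and Ngp stood at log2 10.90, 12.17 and 8.53, while in the other Sf1-Cre arrays the highest values were 3.63, 4.90 and 2.00. Without that array the Sf1-Cre differences were 3.10 for Anxa3 and 3.61 for Anxa1, against 3.14 and 3.69 with it. Summed intensity of the 8 neutrophil and T cell genes on the array was 7041 in that array and 88.2 to 101.7 in the other Sf1-Cre arrays, 92.05 and 185.5 in Dhh-Cre and 70.93 and 78.84 in Control. The T cell genes Cd3g, Cd8a and Cd4 lay under log2 4 in all 8 arrays.

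Anxa4, known from epithelia, where it sits near the apical membrane and modulates chloride conductance, had log2 levels of 10.89, 10.94, 10.95 and 10.92 in Sf1-Cre arrays, 10.54 and 10.65 in Dhh-Cre arrays and 8.19 and 8.37 in Control arrays. The 4 Sf1-Cre arrays lay close together (mean 10.92 ± 0.03, SD, n = 4) and all above the Dhh-Cre arrays. The difference against Control was 2.64 ± 0.13 (SE) in Sf1-Cre, 6.24-fold, and 2.31 ± 0.15 in Dhh-Cre, 4.97-fold. Sf1-Cre minus Dhh-Cre was 0.33 ± 0.13 (SE). The gap between the lines held for this probe set, 1421223_a_at, alone. By 1424176_a_at and 1457658_x_at the lines overlapped, at -0.07 and 0.11, and with the mean of the 3 probe sets the differences were 1.62 in Sf1-Cre, 1.5003 in Dhh-Cre and 0.12 between the lines.

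Anxa2 encodes the heavy chain of a complex with S100a10 that binds actin and membranes and promotes plasmin formation at the cell surface. It stood at log2 12.70, 12.86, 12.82 and 12.69 in Sf1-Cre arrays, 12.82 and 12.76 in Dhh-Cre arrays and 10.99 and 10.93 in Control arrays. The groups of mutants overlapped throughout, with a difference between the lines of -0.02 ± 0.13 (SE). It was higher by 1.81 ± 0.13 in Sf1-Cre, 3.50-fold, and by 1.83 ± 0.15 in Dhh-Cre, 3.55-fold, the smallest difference of the 7 members in each line. Of all genes tested, 20.5% had a larger positive difference in Sf1-Cre and 22.7% in Dhh-Cre. Under housekeeping centring the difference was 0.11 in Sf1-Cre and 0.13 in Dhh-Cre, short of the call threshold in each.

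Anxa7, or synexin, first known for fusing secretory granules and a partner of the calcium-binding protein sorcin, stood at log2 8.84, 8.65, 9.01 and 8.95 in Sf1-Cre arrays, 8.44 and 8.92 in Dhh-Cre arrays and 6.90 and 6.49 in Control arrays. Again both lines overlapped above the controls. It was higher by 2.17 ± 0.20 (SE) in Sf1-Cre, 4.49-fold, and by 1.98 ± 0.23 in Dhh-Cre, 3.96-fold. The Dhh-Cre difference was 0.29 under housekeeping centring, short of the call threshold. In profile over the 8 arrays Anxa7 lay nearest to Anxa2 among the members (0.25 log2 units, root mean square) and was itself the nearest member to Anxa4 (0.28).

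Anxa11, whose product binds the calcium sensors S100a6 and Pdcd6, could not be measured as a gene. Its symbol occurred on 1 probe set, 1418468_at, which the annotation also assigns to Gm2274 and Gm2260. That probe set stood at log2 2.94, 2.90, 3.17 and 2.97 in Sf1-Cre arrays, 4.31 and 4.88 in Dhh-Cre arrays and 7.08 and 6.995 in Control arrays, so it was lower in both lines, with no overlap between the 3 groups. All 4 Sf1-Cre values lay under log2 4, so the level was at least 8.21-fold lower in Sf1-Cre, and it was 5.45-fold lower in Dhh-Cre. Which of its 3 genes gave the signal is not known.

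Separate probe sets of the same gene differed from Control in the same direction. Of 18 probe sets listed for a single member, 14 reached log2 4 in at least 2 arrays, and 13 of these belong to Anxa1 to Anxa7. All 13 lay past the call threshold as higher in both lines, where 45.9% of 25791 probe sets were called higher in Sf1-Cre and 49.1% in Dhh-Cre. Sizes differed within a gene. For Anxa6 the Sf1-Cre difference was 4.34 ± 0.26 (SE) by 1415818_at, 3.59 ± 0.21 by 1429246_a_at and 0.95 ± 0.31 by 1442288_at. The last reached log2 4 only in mutant arrays, with a Control mean of 3.15, and was at least 1.07-fold higher in Sf1-Cre and at least 1.32-fold in Dhh-Cre. For Anxa4 it was 2.64 ± 0.13 by 1421223_a_at, 1.46 ± 0.26 by 1424176_a_at and 0.76 ± 0.14 by 1457658_x_at. Anxa7 had 2.17 ± 0.20 by 1416137_at, 1.90 ± 0.18 by 1416138_at and 0.98 ± 0.21 by 1438764_at. When probe sets were averaged within each gene, the difference was 0.77 in Sf1-Cre and 0.80 in Dhh-Cre for Anxa2, and 2.33 and 2.60 for Anxa6. The remaining 4 probe sets, 1 of Anxa1, 2 of Anxa2 and 1 of Anxa6, did not enter the fit because fewer than 2 arrays reached log2 4.

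**Figure D2:**
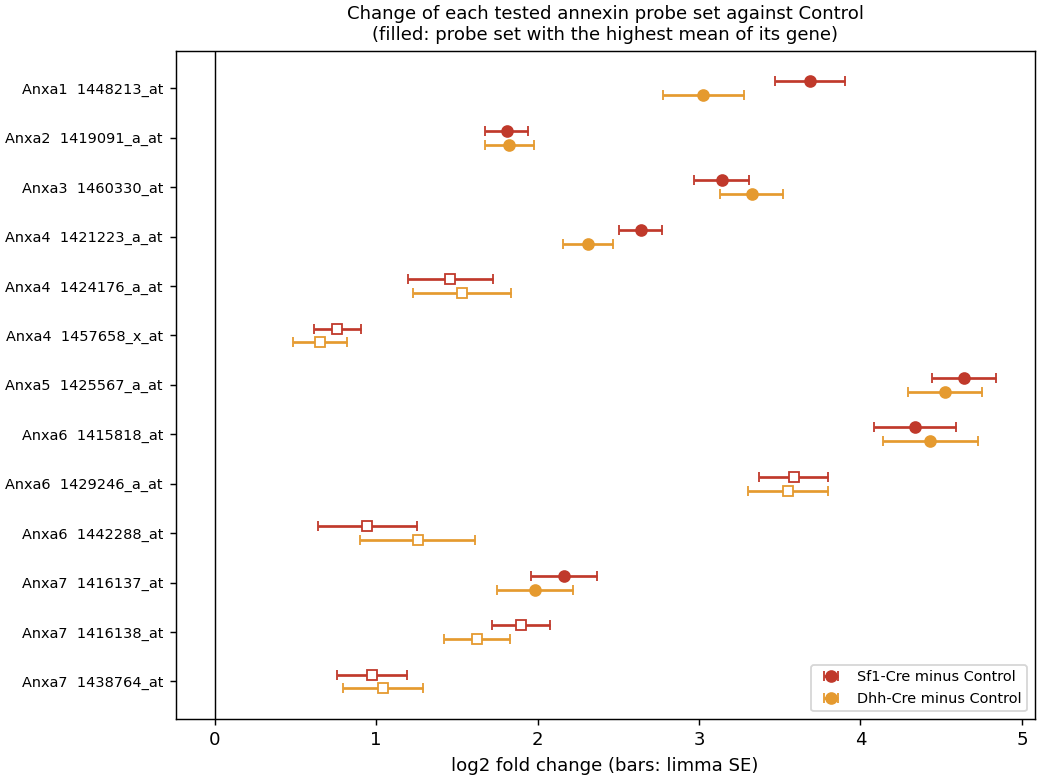
Log2 difference against Control for the 13 probe sets of Anxa1 to Anxa7 in the fit, with points for Sf1-Cre and Dhh-Cre and bars of 1 standard error. All 13 lie above 0 in both lines, from 0.76 for 1457658_x_at of Anxa4 to 4.64 for Anxa5 in Sf1-Cre.

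Anxa13 was the exception in its pattern. This member, known from intestinal and kidney epithelium and anchored to membranes by a fatty acid, has a single probe set. Its log2 intensity was 3.98, 2.34, 2.98 and 2.63 in Sf1-Cre arrays, 5.46 and 6.61 in Dhh-Cre arrays and 4.20 and 3.81 in Control arrays. Both Dhh-Cre arrays lay above all others. Of the 4 Sf1-Cre arrays, 3 lay below both controls, and replicate 1 lay between them. Group means were 2.98 ± 0.71 in Sf1-Cre (SD, n = 4), 6.04 ± 0.81 in Dhh-Cre (SD, n = 2) and 4.00 ± 0.28 in Control (SD, n = 2). As a description, Dhh-Cre minus Control was 2.03 ± 0.56 (SE), 4.09-fold, and Sf1-Cre minus Control was -1.02 ± 0.48. Sf1-Cre minus Dhh-Cre was -3.05 ± 0.48, and with the Sf1-Cre mean under log2 4 the level was at least 4.11-fold lower in Sf1-Cre. All 4 Sf1-Cre values lay under log2 4, a level that separates genes from noise only roughly, so their order is not interpreted. With values under log2 4 set to 4, Sf1-Cre minus Control was -0.10 and Sf1-Cre minus Dhh-Cre -2.04.

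No other member showed this order of the groups. By the probe set used for each gene, Anxa1 and Anxa4 had all Sf1-Cre arrays above both Dhh-Cre arrays, and Anxa2, Anxa3, Anxa5, Anxa6 and Anxa7 overlapped between the lines. Over all genes tested, 47.7% had no overlap between the lines in 1 direction or the other. Differences of the 7 between the lines ran from -0.19 ± 0.16 (SE) for Anxa3 to 0.66 ± 0.21 for Anxa1, against -3.05 ± 0.48 for Anxa13. The member nearest to Anxa13 in profile over the 8 arrays, Anxa2, lay 1.57 log2 units away, root mean square.

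The 5 tested genes nearest to Anxa13 by that measure, over 8 arrays, were Slc35f2, Cytip, Qpct, Mybpc1 and Plac1, at distances of 0.29, 0.36, 0.41, 0.43 and 0.45 log2 units. Slc35f2, which encodes a membrane transporter of the solute carrier group, stood at log2 6.47, 5.34, 5.62 and 5.47 in Sf1-Cre arrays, 8.84 and 9.34 in Dhh-Cre arrays and 6.58 and 6.61 in Control arrays. Cytip, a cytohesin-binding protein gene of blood cells, stood at log2 9.47, 8.51, 8.28 and 8.29 in Sf1-Cre arrays, 11.47 and 11.69 in Dhh-Cre arrays and 9.91 and 9.90 in Control arrays. Qpct encodes the glutaminyl-peptide cyclotransferase, Mybpc1 a myosin-binding protein of slow muscle and Plac1 a placental protein. These genes were picked for their likeness and are given without a test.

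**Figure D3:**
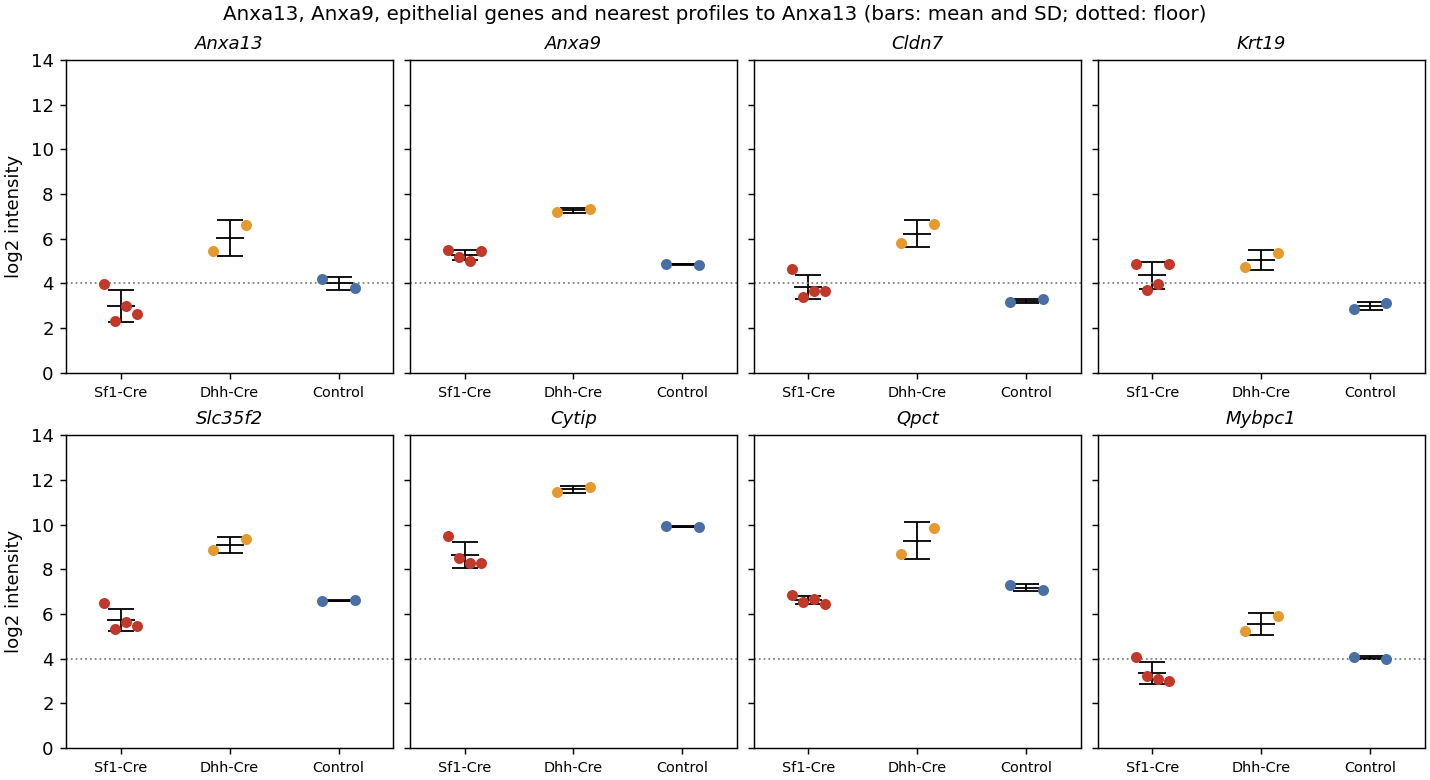
Log2 intensity of Anxa13, of Anxa9, of the epithelial genes Cldn7 and Krt19 and of 4 of the genes nearest to Anxa13 in profile, with 1 point per array for Sf1-Cre, Dhh-Cre and Control, bars at the mean and SD of each group and a dotted line at log2 4. Anxa13 lies at 5.46 and 6.61 in the Dhh-Cre arrays and at 3.98 or below in the Sf1-Cre arrays.

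Markers of other tissues were set beside Anxa13 because it is an epithelial annexin. Among 8 epithelial genes on the array, 7 were tested, and Cldn4 lay under log2 4 in all arrays. Against Control, Krt18, Krt19 and Krt7 were higher and Epcam lower in Sf1-Cre (3 higher, 1 lower and 3 not passing). In Dhh-Cre Cldn7 and Cdh1 were higher as well (5 higher, 1 lower and 1 not passing). Krt19, Krt7, Cldn7 and Cdh1 lay under log2 4 in both Control arrays. They entered the fit through the mutant arrays alone, so their calls of higher are not independent of the filter. Over all genes tested, 46.6% were called higher and 33.2% lower in Sf1-Cre, and 49.1% and 30.5% in Dhh-Cre. The summed intensity of the list was 540.4 to 1276 in Sf1-Cre, 1030 and 2132 in Dhh-Cre and 1919 and 1945 in Control. Epcam, at log2 10.59 and 10.55 in Control, made up most of the Control sums, so these do not follow the other genes of the list. Cldn7, a tight junction gene, stood at log2 4.63, 3.39, 3.67 and 3.65 in Sf1-Cre arrays, 5.80 and 6.66 in Dhh-Cre arrays and 3.16 and 3.30 in Control arrays. With the Sf1-Cre mean of 3.84 under log2 4, it was at least 4.69-fold lower in Sf1-Cre than in Dhh-Cre. Between the lines, Cldn7 and Epcam were called lower in Sf1-Cre, while Krt8, Krt18, Krt19, Krt7 and Cdh1 did not pass. That made 2 lower, 0 higher and 5 not passing. Genes called in either direction between the lines made up 24.6% of those tested.

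The epididymal gene Spink8, a sign of adjoining duct tissue, varied within groups. It stood at log2 12.05, 5.79, 10.49 and 6.46 in Sf1-Cre arrays, 11.55 and 4.48 in Dhh-Cre arrays and 6.87 and 3.11 in Control arrays. Dhh-Cre replicate 2, with Spink8 at 4.48, had the higher Anxa13 level of that line, 6.61. In Sf1-Cre and in Control the 2 genes ran in the same order instead, with Anxa13 highest in replicate 1 of each group, 3.98 and 4.20. Of the Anxa13 values in these 2 groups, only that of Control replicate 1 reached log2 4. A link between the 2 genes was not tested. The summed intensity of 10 epididymal and duct genes was 125.6 to 4441 in Sf1-Cre, 101.9 and 3280 in Dhh-Cre and 78.68 and 193.6 in Control, and 6 of the 10, Lcn8, Lcn9, Lcn5, Cst11, Rnase10 and Pax8, lay under log2 4 in every array. Spink8 itself made up most of the sum in the 3 arrays where it reached log2 10. Adam7, also on the list, stood at log2 6.72 in Sf1-Cre replicate 1, 7.59 in Dhh-Cre replicate 1 and 1.92 to 3.72 in the other arrays. Without the 3 arrays whose Spink8 reached log2 10, Anxa13 differed by -4.13 between the lines and by 2.61 between Dhh-Cre and Control. The same omission left all 7 other members past the call threshold as higher in both lines.

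Some cell lists moved between the lines in the direction of Anxa13. Summed intensity of 11 Sertoli genes was 25880 to 28530 in Sf1-Cre, 43610 and 45510 in Dhh-Cre and 24930 and 25310 in Control, and 8 of the 11 were lower in Sf1-Cre than in Dhh-Cre, 0 higher and 3 not passing (11.8% of all genes tested were called lower). For 7 spermatogonial genes the sums were 3228 to 4414 in Sf1-Cre, 7206 and 7285 in Dhh-Cre and 3241 and 3307 in Control. Of the 7, Stra8, Sall4 and Uchl1 were lower in Sf1-Cre than in Dhh-Cre and 3 did not pass, while Kit was higher, at least 3.99-fold, as both its Dhh-Cre values lay under log2 4. For 7 peritubular muscle genes they were 6171 to 7006, 9210 and 10750, and 5898 and 5948, in the same order of groups, with 4 lower between the lines, 0 higher and 3 not passing. Actg2, at log2 12.01 and 11.81 in Control, made up most of the Control sums of this list. It was 28.1-fold lower than Control in Sf1-Cre and 16.4-fold lower in Dhh-Cre. The other genes of the list were called higher than Control, except Cnn1 in Sf1-Cre, which did not pass. Cnn1 and Des lay under log2 4 in both Control arrays. None of the genes on these 3 lists lay under log2 4 in every array. The part of these lists, or of the epithelial genes, in the Anxa13 values was not tested.

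Of the annexins outside the chosen members, only Anxa9 was tested. Anxa9, an atypical annexin whose core lacks the usual calcium-binding residues, stood at log2 5.49, 5.18, 4.99 and 5.46 in Sf1-Cre arrays, 7.20 and 7.36 in Dhh-Cre arrays and 4.88 and 4.84 in Control arrays. It was 5.33-fold higher in Dhh-Cre than in Control (2.41 ± 0.20 SE, limma adjusted p = 2.09e-05), and in Sf1-Cre the difference of 0.42 ± 0.18 did not pass (adjusted p = 0.0561). The difference between the lines, -1.996 ± 0.18 (SE), was called (adjusted p = 0.000448), so Anxa9 was 3.99-fold lower in Sf1-Cre than in Dhh-Cre. The Sf1-Cre value turned to -1.28 under housekeeping centring, while the difference between the lines was -2.10 to -1.90 in all 22 alternatives. Anxa8, a member described in stratified epithelia, ran from log2 2.73 to 4.00 over the 8 arrays, and Anxa10, known from stomach, stayed under log2 2 in each of them.

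Proteins that bind annexins were examined as a list of 19 genes written from general knowledge. Of these, 16 were on the array under a single symbol and 14 were tested. The list was made with earlier results of these data known. Nothing is therefore read from its counts, and the p-values of its genes are a description. Pla2g4a, Myof and Prkca reached log2 4 only in mutant arrays, so they entered the fit through the groups where they were higher. In Sf1-Cre 13 were higher and 1 lower than in Control, beside a background of 46.6% higher and 33.2% lower over all genes. In Dhh-Cre 12 were higher, 1 was lower and 1 did not pass, beside 49.1% higher and 30.5% lower. The median log2 difference of the 14 was 2.36 in Sf1-Cre and 2.26 in Dhh-Cre. S100a11, Fpr1 and Fpr3 were not analysed here. Under housekeeping centring the partners split into 8 higher and 4 lower in Sf1-Cre and 7 higher and 3 lower in Dhh-Cre.

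**Figure D4:**
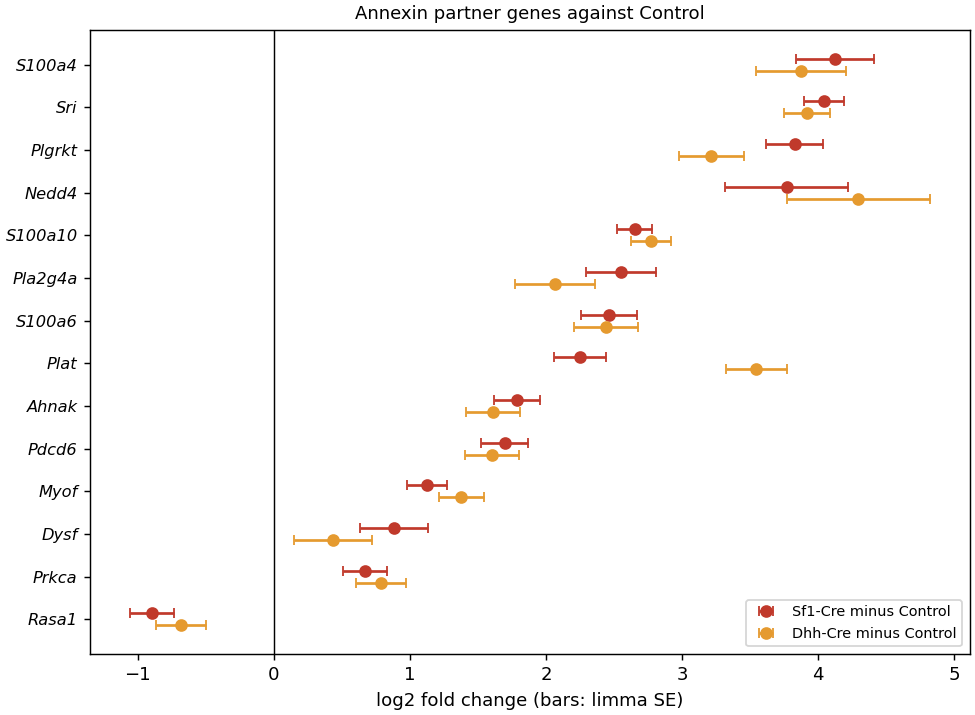
Log2 difference against Control for the 14 tested annexin partner genes, with points for Sf1-Cre and Dhh-Cre and bars of 1 standard error. Rasa1 lies below 0 in both lines (-0.90 and -0.68), and Plat stands out for its larger difference in Dhh-Cre (3.55) than in Sf1-Cre (2.25).

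Among S100 proteins, small calcium sensors that clamp annexin ends, S100a10 is the light chain of the Anxa2 complex. It stood at log2 12.69, 12.63, 12.51 and 12.60 in Sf1-Cre arrays, 12.69 and 12.76 in Dhh-Cre arrays and 9.88 and 10.02 in Control arrays. S100a10 rose by 2.65 ± 0.13 (SE) in Sf1-Cre, 6.29-fold (limma adjusted p = 1.31e-06), and by 2.77 ± 0.15 in Dhh-Cre, 6.82-fold (adjusted p = 3.59e-06). S100a4, a motility-linked partner of Anxa2, rose 17.5-fold in Sf1-Cre and 14.7-fold in Dhh-Cre. S100a6, or calcyclin, rose 5.52-fold and 5.44-fold in the same lines, but its Dhh-Cre call was lost when arrays were centred on peritubular and endothelial genes (0.77, limma adjusted p = 0.0584). Ahnak, a giant scaffold that binds the Anxa2 and S100a10 complex, rose by 1.79 ± 0.17 (SE) and 1.61 ± 0.20. The Ahnak difference was 0.091 in Sf1-Cre and -0.081 in Dhh-Cre under housekeeping centring, and not called.

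Genes of the plasminogen system, whose activation the Anxa2 complex assists, included the plasminogen activator gene Plat. Plat stood at log2 5.85, 5.92, 6.11 and 6.21 in Sf1-Cre arrays, 7.48 and 7.16 in Dhh-Cre arrays and 4.01 and 3.54 in Control arrays. As the Control mean lay under log2 4, it was at least 4.06-fold higher in Sf1-Cre and at least 9.98-fold higher in Dhh-Cre. Sf1-Cre minus Dhh-Cre was -1.30 ± 0.19 (SE, limma adjusted p = 0.00371), a 2.46-fold lower level in Sf1-Cre, but -1.09 with an adjusted p of 0.109 without the 3 arrays rich in Spink8. Plgrkt, which encodes a membrane receptor for plasminogen, rose 14.2-fold in Sf1-Cre and 9.29-fold in Dhh-Cre. Plasminogen itself, Plg, lay under log2 4 in all 8 arrays.

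Partners of Anxa7 and Anxa11 rose in both lines. Sri, encoding sorcin, stood at log2 8.91, 8.88, 9.08 and 9.22 in Sf1-Cre arrays, 8.88 and 8.91 in Dhh-Cre arrays and 5.06 and 4.89 in Control arrays. The rise was 4.04 ± 0.15 (SE) in Sf1-Cre, 16.5-fold (limma adjusted p = 5.33e-07), and 3.92 ± 0.17 in Dhh-Cre, 15.1-fold (adjusted p = 1.91e-06). Pdcd6, a calcium sensor of membrane traffic also called ALG-2, rose by 1.70 ± 0.17 in Sf1-Cre and 1.60 ± 0.20 in Dhh-Cre. Under housekeeping centring the Pdcd6 difference was 0.0003 in Sf1-Cre (limma adjusted p = 0.999) and -0.091 in Dhh-Cre, with neither called.

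Of the partners of Anxa6, Rasa1 fell. Its log2 level was 8.77, 8.39, 8.35 and 8.39 in Sf1-Cre arrays, 8.63 and 8.74 in Dhh-Cre arrays and 9.35 and 9.39 in Control arrays, with differences of -0.90 ± 0.16 (SE, limma adjusted p = 0.00109) in Sf1-Cre and -0.68 ± 0.18 (adjusted p = 0.00917) in Dhh-Cre. With the mean of all its probe sets the Dhh-Cre value was 0.15, and without the 3 arrays rich in Spink8 it was -0.63 and no longer called (limma adjusted p = 0.0558). Prkca, the protein kinase C alpha gene, lay near log2 4 in all arrays, from 3.12 to 4.14, with a Control mean under that level. Its positive differences of 0.67 in Sf1-Cre and 0.79 in Dhh-Cre turned negative under housekeeping centring. With values under log2 4 set to 4 they were 0.03 (limma adjusted p = 0.775) and 0.07 (adjusted p = 0.596), so both calls were lost. Nedd4, a ubiquitin ligase that binds Anxa13, rose 13.6-fold in Sf1-Cre and 19.7-fold in Dhh-Cre.

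Pla2g4a, the cytosolic phospholipase A2 that Anxa1 restrains, stood at log2 4.76 to 5.23 in Sf1-Cre arrays, 4.50 and 4.33 in Dhh-Cre arrays and 2.78 and 1.92 in Control arrays. It reached log2 4 only in mutant arrays and was called higher in both lines, at least 1.86-fold in Sf1-Cre and at least 1.33-fold in Dhh-Cre. The Dhh-Cre call was lost with values under log2 4 set to 4 (0.41, limma adjusted p = 0.071), under housekeeping centring (0.37, adjusted p = 0.264) and under peritubular and endothelial centring (0.40, adjusted p = 0.265). The formyl peptide receptor gene Fpr2 was not tested, as just 1 array, Sf1-Cre replicate 1 at log2 4.81, reached log2 4. Of the membrane repair genes that act with annexins, Myof was at least 1.90-fold higher in Sf1-Cre and at least 2.26-fold in Dhh-Cre. Dysf was 1.85-fold higher in Sf1-Cre (0.89 ± 0.25 SE, limma adjusted p = 0.0113), and in Dhh-Cre its difference of 0.44 ± 0.29 did not pass (adjusted p = 0.196). Without Control replicate 1 the Sf1-Cre call of Dysf was lost (adjusted p = 0.0668). Myof and Dysf both turned negative in both lines under housekeeping centring.

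Lists of somatic cell genes were higher in the same arrays as the 7 annexins. Calls of higher made up 46.6% of all genes tested in Sf1-Cre and 49.1% in Dhh-Cre. Of 15 macrophage genes on the array, 14 were tested, and 13 were higher and Aif1 lower in each line, while Itgam lay under log2 4 throughout. Their summed intensity was 33770 to 38650 in Sf1-Cre, 27050 and 27640 in Dhh-Cre and 11960 and 16140 in Control. Aif1, at log2 13.40 and 12.63 in Control, made up most of the Control sums. Csf1r, the macrophage growth factor receptor gene, rose by 3.89 ± 0.22 (SE) in Sf1-Cre and 3.22 ± 0.25 in Dhh-Cre. All 8 tested fibroblast genes were higher in each line, with sums of 13670 to 15610 in Sf1-Cre, 14640 and 18860 in Dhh-Cre and 1918 and 1978 in Control, and Lum under log2 4 throughout. Of 8 tested endothelial genes 7 were higher in each line and Vwf did not pass, with sums of 1153 to 1980, 1574 and 1956, and 389.9 and 415.9 in the same order of groups, and Pecam1 and Cdh5 under log2 4 throughout. Of 6 Leydig cell genes, 5 were higher in Sf1-Cre, where Hsd17b3 did not pass. In Dhh-Cre 4 were higher, and Hsd17b3 and Cyp17a1 did not pass. Their sums were 22060 to 30540 in Sf1-Cre, 19350 and 24390 in Dhh-Cre and 5749 and 6628 in Control. None of the 6 lay under log2 4 in every array. Of 7 genes of ovarian granulosa cells on the array, 6 were tested, and 6 were higher in Sf1-Cre and 5 in Dhh-Cre, with Inhba not passing in Dhh-Cre and Esr2 under log2 4 throughout. Their sums were 6475 to 8948 in Sf1-Cre, 4662 and 5501 in Dhh-Cre and 899.6 and 923.5 in Control. Of the granulosa genes, Foxl2, Fst, Inhba, Nr5a2 and Hsd17b1 lay under log2 4 in both Control arrays. So did Cd14, C1qa and Cx3cr1 of the macrophage list, Emcn, Esam, Tie1 and Kdr of the endothelial list and Fbln1 of the fibroblast list. These genes entered the fit through the mutant arrays alone, so their calls of higher are not independent of the filter.

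Germ cell and technical measures differed between mutants and controls too. All 14 spermatid genes were lower in Sf1-Cre and 13 in Dhh-Cre, where Prm1 did not pass. Their sums were 2055 to 8356 in Sf1-Cre, 1636 and 12980 in Dhh-Cre and 80850 and 89180 in Control. For 10 spermatocyte genes, 8 were lower and 2 did not pass in Sf1-Cre. In Dhh-Cre 7 of them were lower, Dmc1 was higher and 2 did not pass. Calls of lower made up 33.2% of all genes tested in Sf1-Cre and 30.5% in Dhh-Cre. The spermatid gene Tssk6 and the spermatocyte gene Ovol2 reached log2 4 only in Control arrays, so they entered the fit through that group. Summed intensity of the 13 housekeeping genes was 53370 to 58800 in Sf1-Cre, 54440 and 56030 in Dhh-Cre and 32290 and 33710 in Control. The ratio of 3′ to 5′ Actb signal, a measure linked to RNA quality, was 9.45 to 13.5 in Sf1-Cre, 9.51 and 13.6 in Dhh-Cre and 4.89 and 4.44 in Control. The same ratio for Gapdh was 1.67 to 2.34 in Sf1-Cre, 3.3 and 1.9 in Dhh-Cre and 3.58 and 2.96 in Control. The 2 ratios thus did not differ between mutants and controls in the same direction. What part the cell mix or RNA quality had in the annexin differences was not tested.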

How the data were processed

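Expression was measured on 8 1-colour oligonucleotide arrays, 1 per testis RNA sample, in 3 groups taken from the labels' genotypes. The deposited intensity values are on a linear scale and were made by the authors with GCRMA, per the submitters' processing notes. The sources used here give neither its version nor its settings. In general use GCRMA corrects for probe sequence and equalizes array distributions, so changes shared by most genes are damped. Log2 was taken here from the deposited intensity. Of 45101 probe sets, 34958 carry 1 symbol, 932 several and 9211 none listed; symbols were updated by Entrez identifier through RefSeq GRCm38.p6 (34754 matched). Each gene was read by its probe set of highest mean. A gene was tested if 2 arrays or more reached log2 4.

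The fit used limma 3.58.1 (R 4.3.3, with data.table at version 1.17.8), with 3 group means over all 8 arrays (5 residual and 2.73 prior degrees of freedom), 2-sided p-values and Benjamini-Hochberg adjustment over 13802 genes. Errors are standard errors of differences or standard deviations of levels. Folds against a mean under log2 4 are lower bounds. The fit was tested on simulated data. The small number of arrays limits precision. Figures used Python 3.11.15, pandas 2.3.3 and matplotlib 3.10.9.

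The annexins, partners and marker lists were chosen with earlier results of these data known, so p-values of the members are not given. Those of the partners are a description. Named genes are every member and probe set, the other mouse annexins, partners that passed in either line with the rest by name, Dmrt1, the 5 genes nearest to Anxa13 and markers set beside a result. Alternatives covered normalization, centring, filters, moderation, weights, probe sets, thresholds, replicate numbers and single arrays left out. Leaving out 3 arrays rich in Spink8 and centring on peritubular and endothelial genes were added after seeing the data.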

Additional observations from a re-analysis of the deposited data

Results flagged for a closer look

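Anxa9, an annexin outside the chosen members, differed between the Cre lines by -1.996 on the log2 scale (Sf1-Cre minus Dhh-Cre, limma adjusted p = 0.000448). All 4 Sf1-Cre arrays lay below both Dhh-Cre arrays. Plat, the plasminogen activator gene, differed between the lines by -1.30 (limma adjusted p = 0.00371), again with all 4 Sf1-Cre arrays below both Dhh-Cre arrays. Between the lines, 24.6% of all genes tested passed in either direction. No sample of the Sf1-Cre group stood apart from the other 3 by Dixon's criterion for the annexin probe sets. The groups of 2 are too small for that criterion.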

How the results depend on the processing

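The counts of annexins past the call threshold as higher than Control, a description, were 7 in Sf1-Cre and 7 in Dhh-Cre under 20 of 22 alternatives, with 0 lower in all 22. Under housekeeping centring and under peritubular and endothelial centring they were 6 and 5, with Anxa2 lost in both lines and Anxa7 in Dhh-Cre. The cause was not tested. Both centrings shift every gene equally (by 1.62 in Sf1-Cre and 1.67 in Dhh-Cre for the peritubular and endothelial genes), and took the share of calls that were higher to 17.8% and 18.9% in Sf1-Cre (58.4% without) and to 19.1% and 19.4% in Dhh-Cre (61.7% without). Partners higher than Control were then 8 in Sf1-Cre and 7 or 6 in Dhh-Cre, and lower 4 in Sf1-Cre and 3 in Dhh-Cre. Partners lower in Dhh-Cre were 0 with the mean of all probe sets, where Rasa1 was 0.15, and 0 without the 3 arrays rich in Spink8. Signs turned under housekeeping and under peritubular and endothelial centring, in that order, in Sf1-Cre for Anxa9 (-1.28 and -1.21), Prkca (-1.03 and -0.95), Dysf (-0.81 and -0.74) and Myof (-0.57 and -0.50), and in Dhh-Cre for Ahnak (-0.081 and -0.057), Pdcd6 (-0.091 and -0.067), Prkca (-0.91 and -0.88), Dysf (-1.26 and -1.24) and Myof (-0.32 and -0.29). The untested difference of Anxa13 between the lines was -4.13 to -2.04 over 21 alternatives. With the replicate block 7 and 7 annexins were called, and Anxa13 differed by -2.88. Deviations of same-numbered samples from their group means had correlations of -0.19 to 0.38. In a group of 2 the deviations mirror each other, so these values cannot decide whether the numbers are a pairing. With 2 Control arrays, 1 array can decide a call near the threshold: Dysf in Sf1-Cre was lost without Control replicate 1 (limma adjusted p = 0.0668) and Prkca without Control replicate 2 (adjusted p = 0.0507). Signals under log2 4, as for Anxa13 in Sf1-Cre, are limited by background.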
